A study of Mus musculus with 16 samples.

Results

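Macrophages that had received interferon before were compared with naive macrophages at 0 h, at the start of the time course. The comparison used 8 of the 16 arrays of the series, 4 labelled Pretreated at 0 h and 4 labelled Naïve at 0 h, chosen by these labels alone. All groups were bone-marrow derived macrophages of H3.3-HA knock-in mice, in which the replacement histone H3.3 carries an HA tag, and the cells had been grown with medium conditioned by L cells. The protocol names interferon-gamma as the treatment, and a token in the titles of the pretreated arrays names earlier interferon. The dose and length of the pretreatment, the age of the mice and whether the cells rested without interferon before 0 h are not stated in the labels, so the values describe the state at 0 h and not how long it had lasted. No group without the tag was analysed here, so every value holds for tagged cells only. The arrays came in 2 sets of 8, as numbered in their titles. Set 1 held replicates 1 and 2 of both 0 h groups beside 6 h arrays, and set 2 held replicates 3 and 4 beside 3 h arrays. Nothing says that replicates came from separate mice or cultures, so p-values measure the spread between these arrays, which may be technical.

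Interferon-gamma is the cytokine with which T and NK cells activate macrophages. Its receptor signals through the kinases Jak1 and Jak2, and genes that respond often hold GAS elements or ISRE elements, the latter bound by factors such as Irf1. The targets include guanylate-binding proteins and immunity-related GTPases that attack vacuoles holding microbes, chemokines that draw T cells, and the machinery that presents peptides on MHC molecules.

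The promoters of 6 of the called genes with the largest differences at 0 h are shown because they hold these elements. Each is the 250 bases before the most upstream start listed by RefSeq for the gene (GRCm38.p6), written 5′ to 3′ on the gene's strand, with matches in capitals. The searched cores were GAAA, any 2 bases and GAAA again for ISRE, and TTCNNNGAA for GAS, on both strands, and a match on the opposite strand appears as its reverse complement. They were chosen as the largest differences with a match, so they are examples and not a sample. Positions are counted back from the start.

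Ifi213: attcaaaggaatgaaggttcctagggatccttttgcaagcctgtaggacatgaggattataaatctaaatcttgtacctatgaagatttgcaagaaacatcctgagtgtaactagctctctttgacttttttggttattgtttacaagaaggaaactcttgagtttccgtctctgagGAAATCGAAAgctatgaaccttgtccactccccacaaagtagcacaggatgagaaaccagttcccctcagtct
Slamf8: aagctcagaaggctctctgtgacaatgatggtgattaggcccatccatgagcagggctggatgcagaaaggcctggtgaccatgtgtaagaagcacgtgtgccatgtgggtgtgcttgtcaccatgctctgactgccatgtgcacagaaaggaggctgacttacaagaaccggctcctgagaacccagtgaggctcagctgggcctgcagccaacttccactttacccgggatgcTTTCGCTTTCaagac
Ifi206: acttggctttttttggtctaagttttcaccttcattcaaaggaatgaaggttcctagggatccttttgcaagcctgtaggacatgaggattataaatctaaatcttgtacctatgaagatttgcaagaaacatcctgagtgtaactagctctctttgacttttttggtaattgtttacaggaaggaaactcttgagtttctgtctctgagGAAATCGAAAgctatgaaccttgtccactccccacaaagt
Ifi205: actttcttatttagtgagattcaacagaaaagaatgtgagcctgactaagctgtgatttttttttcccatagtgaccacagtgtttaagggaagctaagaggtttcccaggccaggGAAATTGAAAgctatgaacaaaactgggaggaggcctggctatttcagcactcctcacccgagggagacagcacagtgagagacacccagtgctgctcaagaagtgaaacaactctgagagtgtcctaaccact
Fgl2: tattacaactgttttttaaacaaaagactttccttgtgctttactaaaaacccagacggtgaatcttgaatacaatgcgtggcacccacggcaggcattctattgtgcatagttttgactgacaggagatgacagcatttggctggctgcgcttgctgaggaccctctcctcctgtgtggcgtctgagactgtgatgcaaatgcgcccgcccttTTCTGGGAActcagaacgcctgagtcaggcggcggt
Gm1966: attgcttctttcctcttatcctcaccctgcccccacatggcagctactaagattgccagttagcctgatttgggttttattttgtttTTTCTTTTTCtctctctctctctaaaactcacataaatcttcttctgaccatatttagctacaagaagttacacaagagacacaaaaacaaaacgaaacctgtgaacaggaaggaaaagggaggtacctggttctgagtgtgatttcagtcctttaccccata

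The ISRE core of Ifi213 (chr1:173599273-173599522, minus strand) lay at -73 to -64, and that of Slamf8 (chr1:172590569-172590818, minus strand) lay at -15 to -6. In Ifi206 (chr1:173491319-173491568, minus strand) it lay at -40 to -31, and in Ifi205 (chr1:174031756-174032005, minus strand) at -134 to -125. Gm1966 (chr7:106644646-106644895, minus strand) held an ISRE core at -163 to -154. Fgl2 (chr5:21372423-21372672, plus strand) held a GAS core at -36 to -28 and was the only one of the 6 shown for that element.

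Macrophages pretreated with interferon had higher levels of interferon-induced genes at 0 h, and few genes were lower. Of 19938 genes, 161 (0.808%) were higher and 31 (0.155%) lower, together 192 (0.963%), at an adjusted p under 0.05, from a limma fit with Benjamini-Hochberg adjustment over all genes. The log2 differences had a median of 1.02 among the higher and -0.70 among the lower genes, beside 0.02 over all genes. Of the higher genes 83 differed by at least 2-fold and 20 by at least 4-fold, whereas 2 of the lower genes differed by at least 2-fold. For 18 of the higher genes the naive mean of at least 1 set was under a log2 value of 6.5, called dim here. Those differences start near background in that set. The arrays of the 2 groups did not overlap within either set for 190 of the 192 genes. Over all genes that held for 849 (4.26%) in the higher and 819 (4.11%) in the lower direction. The exceptions were Dtx3l and Ptger1, named after their values were seen. With a block for the array numbers 1 to 4 and 5 to 8 in the titles of a set, called the number block here, 355 genes (1.78%) were higher and 329 (1.65%) lower, all 192 among them, and the labels do not say what these runs of numbers stand for. With any 1 of the 8 arrays left out, 110 higher and 12 lower genes kept their call each time.

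The matches described above were more frequent in promoters of the higher genes than over all genes, as a description with no test. Of the 161 higher genes 117 had a promoter in the table, and 34 of these (29.1%) held an ISRE core, beside 2.92% of the 15614 genes with one. A GAS core was found in 16 (13.7%), beside 6.66%. Either was found in 43 (36.8%), beside 9.17%, with both in 7 promoters, overlapping in 2. Among genes higher by at least 2-fold the share with either was 52.6% of 57 promoters. Of the 31 lower genes 20 had a promoter, and 1 held an ISRE and 1 a GAS core. With the number block the share among higher genes was 23.6%.

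Macrophage markers were at high levels in both groups. Csf1r, the receptor for the growth factor that drives macrophage growth, was at 13.17 to 13.67 on the log2 intensity scale in naive and 13.17 to 13.52 in pretreated arrays. Of 12 macrophage markers only Fcgr1, itself an interferon target, was called, and the log2 of the markers' summed intensity ranged from 16.31 to 16.61 in naive and from 16.31 to 16.55 in pretreated arrays. Markers of NK, neutrophil, mast, B and stromal cells gave no call in either direction (0 of 8, 10, 10, 7 and 10), and 7, 7, 7, 3 and 5 of them had a mean under the dim level of 6.5. None of 8 T cell markers was called either. Their summed level in set 1 was 12.09 to 12.49 in naive and 11.24 to 12.08 in pretreated arrays, without overlap. In set 2 it was 10.48 to 12.16 in naive and 9.92 to 11.61 in pretreated arrays. Under the number block 2 T cell markers and 1 macrophage marker were lower and 1 neutrophil marker was higher. That block called 1.65% of all genes lower and 1.78% higher. In RNA from a whole culture, fewer cells of a type and less RNA per cell cannot be told apart. The deposited values had medians of 7.15 to 7.23 in set 1 and of 6.89 to 7.0 in set 2, so every difference was taken within a set and then averaged.

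Interferon-inducible GTPases, most of which act on vacuoles of intracellular microbes while Mx1 and Mx2 act against viruses, were mostly higher: 10 of the 11 measured were called, with a median log2 difference of 1.69. The list holds 20 genes, and the other 9 are not analysed here. Gbp4, a guanylate-binding protein, was at 6.97, 5.85, 5.59 and 5.30 in naive replicates 1 to 4 and at 9.82, 11.41, 10.40 and 10.53 in pretreated replicates 1 to 4. Iigp1, an immunity-related GTPase, was at 7.72, 7.63, 6.17 and 6.37 in naive arrays and 10.70, 11.84, 10.88 and 11.31 in pretreated arrays. Every pretreated array stood above every naive array for both genes, and the log2 differences were 4.61 ± 0.29 (SE, n = 4 against 4 arrays, adjusted p = 3.88e-06) for Gbp4 and 4.21 ± 0.19 (adjusted p = 1.52e-07) for Iigp1. The naive mean of Gbp4 was dim, so its difference rests on a level near background in 1 group. That of Iigp1 was dim in set 2 only, so its difference there has the same limit. Gbp8, Gbp2b, Gbp3 and Gbp5 differed by 2.20, 1.81, 1.74 and 1.69. Irgm1, which governs other GTPases of its family, had a smaller difference of 1.14 ± 0.12 from a naive level of 10.70 to 11.37. Mx1 was called at 1.65 ± 0.35 (adjusted p = 0.0456), but the call was lost when any array but naive replicate 4 was left out (adjusted p up to 0.205). Its relative Mx2 was not called, at 0.89 ± 0.32 (adjusted p = 0.372). Gbp genes are close copies of each other, and probes can read more than 1 of them.

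**Figure D1:**
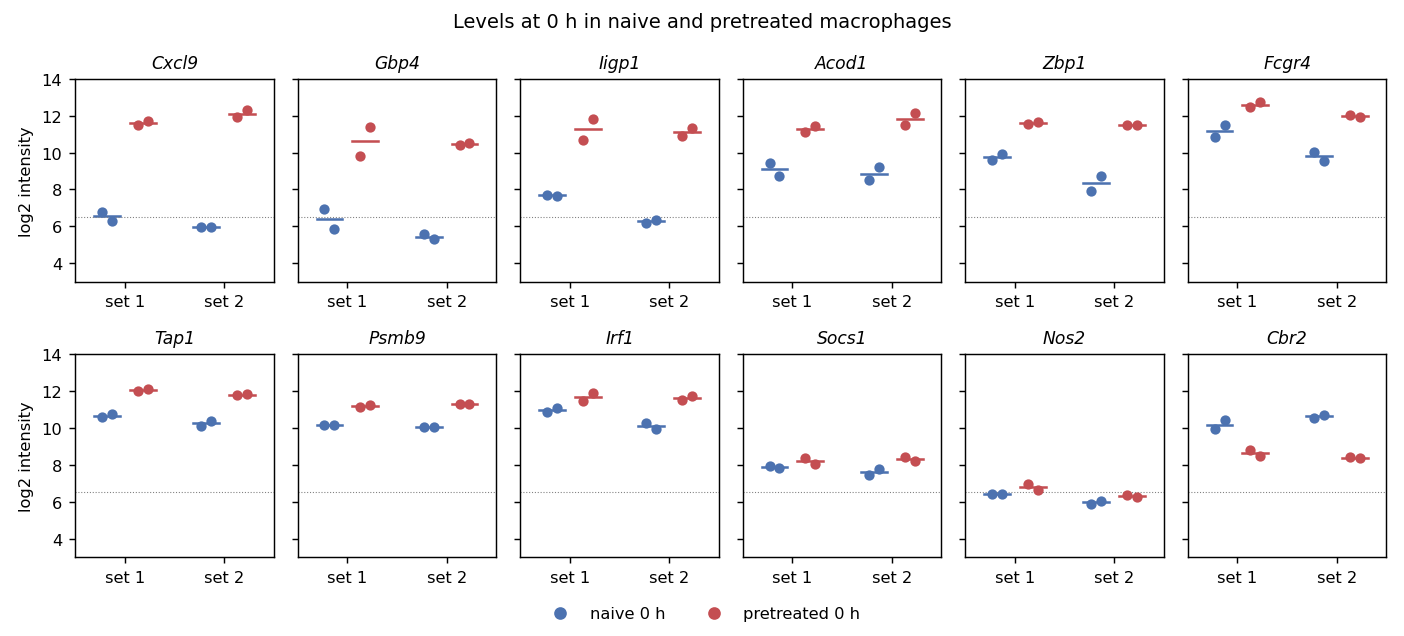
Log2 intensity of 12 genes at 0 h in naive and pretreated macrophages, by array set, with each point an array, horizontal bars the means of 2 arrays and the dotted line the level of 6.5 called dim. Pretreated arrays stand above naive arrays within each set for Cxcl9, Gbp4 and Iigp1 and below them for Cbr2, while both groups lie near the dotted line for Nos2.

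The largest log2 difference was that of Cxcl9, a chemokine that draws T cells through the receptor Cxcr3. It was at 6.80, 6.29, 5.99 and 5.98 in naive arrays and at 11.49, 11.72, 11.92 and 12.30 in pretreated arrays. The groups lay far apart in both sets, with a log2 difference of 5.59 ± 0.12 (adjusted p = 6.58e-11). Its naive mean was dim in set 2 and just above the dim level in set 1. The difference thus rests on a level near background in 1 group, and no fold is given. Of 17 chemokines measured 4 were higher and none lower, with a median of 0.26. The others were Ccl5 at 2.64 ± 0.28, Ccl8 at 2.33 ± 0.22 and Cxcl10, also a Cxcr3 ligand, at 1.68 ± 0.19. The number block gave 8 higher chemokines, beside 1.78% of all genes higher under that block. Cxcl11, the remaining Cxcr3 ligand, was at 6.58 to 7.11 in naive and 6.85 to 7.55 in pretreated arrays, and its difference of 0.23 ± 0.23 was not called (adjusted p = 0.906). In naive cells Cxcl11 rose by 4.61 after 6 h of interferon-gamma in set 1.

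Most measured genes of MHC class I presentation were higher, among them the immunoproteasome that cuts peptides and the transporter that carries them. Of 14 measured genes 12 were higher and none lower, with a median of 0.82. The list holds 20 genes, and the others, among them the heavy chains H2-K1 and H2-D1, are not analysed here. Tap1, a subunit of the peptide transporter, was at 10.58, 10.74, 10.10 and 10.39 in naive and at 12.02, 12.10, 11.77 and 11.83 in pretreated arrays. Its spread was small beside the difference of 1.48 ± 0.08 (adjusted p = 1.92e-06). The other subunit Tap2 differed by 0.79 ± 0.10. The immunoproteasome subunits Psmb8, Psmb9 and Psmb10 differed by 1.17, 1.13 and 1.06, and their activators Psme1 and Psme2 by 0.53 and 0.50. H2-Q4, a class I heavy chain that close copies may share probes with, differed by 1.42 ± 0.14. Nlrc5, the transactivator of class I genes, was higher by 1.18 ± 0.10, and the 19 features that name it ranged from 0.74 to 1.36. B2m, the invariant light chain, was at 13.47 to 13.62 in naive and 13.56 to 13.63 in pretreated arrays, near the top of the scale, and was not called (0.05 ± 0.07, adjusted p = 0.945).

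MHC class II genes had some of the largest differences and a wide spread between arrays. H2-Aa, the alpha chain of I-A, was at 9.53, 7.75, 9.52 and 5.14 in naive replicates and at 12.48, 12.07, 12.15 and 10.78 in pretreated replicates. Its beta chain H2-Ab1 was at 9.56, 8.47, 9.40 and 7.05 and at 12.44, 12.19, 12.24 and 10.85. No pretreated array fell below a naive one, while naive replicate 4 was the lowest array for both genes and pretreated replicate 4 the lowest of its group. Of 12 class II genes 3 were called, all higher, with a median of 0.87: H2-Ab1 at 3.31 ± 0.64 (adjusted p = 0.0253), H2-Eb1 at 2.66 ± 0.49 (adjusted p = 0.0195) and H2-DMa at 1.62 ± 0.13 (adjusted p = 2.92e-05). H2-DMa, part of the chaperone that loads peptides, had naive values between 9.86 and 10.20. H2-Aa at 3.88 ± 0.97 (adjusted p = 0.11) and the invariant chain Cd74 at 2.85 ± 0.68 (adjusted p = 0.084) were not called. Ciita, the class II transactivator, was at 6.43 to 7.47 in naive and 7.68 to 9.01 in pretreated arrays and was not called (1.24 ± 0.38, adjusted p = 0.245). With the number block the adjusted p was 0.000579 for H2-Aa, 0.000769 for Cd74 and 0.0059 for Ciita. That block gave 6 higher class II genes, beside 1.78% higher over all genes. H2-Ab1 and H2-Eb1 each lost the call when naive replicate 2 or 4 or pretreated replicate 1, 2 or 3 was left out, with adjusted p up to 0.134 and 0.105, both without naive replicate 2.

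**Figure D2:**
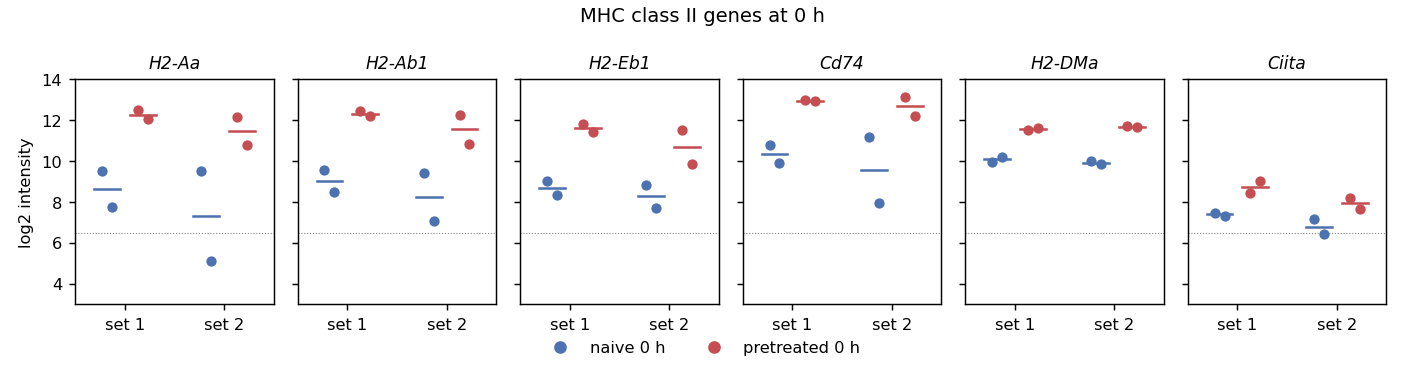
Log2 intensity of 6 MHC class II genes at 0 h by array set, with each point an array, horizontal bars the means of 2 arrays and the dotted line the dim level of 6.5. Naive replicate 4, in set 2, is at 5.14 for H2-Aa and 7.97 for Cd74, far below the other naive arrays, while the H2-DMa points of each group lie close together.

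Some genes upstream of these targets were called and most were not, beside 0.808% called higher over all genes. Of 15 genes of the interferon receptors and the JAK-STAT pathway only Stat2 was called, at 0.90 ± 0.08, and the median was 0.04. Ifngr1 and Ifngr2, the receptor chains for interferon-gamma, differed by -0.03 ± 0.10 and 0.00 ± 0.10, and Jak2 by 0.33 ± 0.13 (adjusted p = 0.433). Of 14 IRF and BATF transcription factors and related activators 4 were higher and none lower, with a median of 0.19. Irf7, which drives type I interferon genes, differed by 1.54 ± 0.14 and Irf1 by 1.11 ± 0.10. The second feature of Irf1 gave 0.25. Batf2 differed by 1.08 ± 0.13 and Nlrc5 is given above. Irf8, a lineage factor of macrophages, was at 10.93 to 12.29 in naive and 11.35 to 12.39 in pretreated arrays, with a difference of 0.13 ± 0.11 (adjusted p = 0.883).

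Most feedback inhibitors were not called either, again beside 0.808% called higher over all genes. Of 13 measured only Socs1, which blocks Jak kinases, was called. It was at 7.91, 7.80, 7.45 and 7.75 in naive and 8.39, 8.02, 8.42 and 8.23 in pretreated arrays, a difference of 0.54 ± 0.11 (adjusted p = 0.0279), and the call was lost when any array but naive replicate 4 or pretreated replicate 2 was left out (adjusted p up to 0.147). Socs3 differed by 0.06 ± 0.15 (adjusted p = 0.97). In naive cells both rose strongly after interferon-gamma, Socs1 by 4.25 and Socs3 by 4.04 at 3 h in set 2. Usp18, which limits type I interferon signalling, differed by 1.02 ± 0.24 and was not called (adjusted p = 0.0774).

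Antiviral genes best known as targets of type I interferon were also higher. Of 39 measured 22 were higher and none lower, with a median of 0.61. Zbp1, a sensor of Z-form nucleic acids, was at 9.59, 9.90, 7.92 and 8.73 in naive and at 11.54, 11.63, 11.51 and 11.47 in pretreated arrays. The pretreated arrays were nearly equal and the naive values were lower in set 2, where the difference was 3.17 against 1.84 in set 1. Oasl1 differed by 1.75 ± 0.29 and Ifit2 by 1.62 ± 0.14. Members of the p200 family, whose promoters are shown above, were among the largest: Ifi213 differed by 2.88 ± 0.22, Ifi206 by 2.72 ± 0.18 and Ifi205 by 2.54 ± 0.12. These are close copies that lie near each other on chromosome 1, and their probes may not tell them apart. The windows of Ifi213 and Ifi206 printed above hold nearly the same letters around the core.

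Several effector genes of activated macrophages were higher and others were not called. Acod1, which makes itaconate, was at 9.46, 8.72, 8.50 and 9.23 in naive and at 11.10, 11.46, 11.49 and 12.14 in pretreated arrays. Every pretreated array stood above every naive array, by 2.57 ± 0.20 on average (adjusted p = 1.9e-05). Nos2, the inducible nitric oxide synthase, was at 5.89 to 6.44 in naive and at 6.25 to 6.98 in pretreated arrays, around the dim level, and its difference of 0.35 ± 0.34 was not called (adjusted p = 0.90). Acod1 was the only 1 of 8 genes of nitric oxide, arginine and itaconate metabolism to be called. Of 21 cytokines and costimulators 4 were higher: Il18bp, which binds interleukin-18, at 1.57 ± 0.14, the death ligand Tnfsf10 at 1.49 ± 0.15, the costimulator Cd86 at 1.47 ± 0.17 and the B cell factor Tnfsf13b at 1.01 ± 0.14. Cd274, the ligand PD-L1, differed by 1.24 ± 0.39 and was not called (adjusted p = 0.27), and Tnf by 0.87 ± 0.46 (adjusted p = 0.73), with naive arrays spread from 7.79 to 10.83. None of 5 phagocyte oxidase genes and none of 15 Toll-like receptors and adaptors was called, with medians of 0.06 and 0.10. With the number block 8 cytokines and costimulators and 2 Toll-like receptors and adaptors were higher and no oxidase gene was called. Over all genes that block called 1.78% higher.

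Of 5 Fc receptors, which bind antibody, 2 were higher and none lower. Fcgr4, an activating receptor for IgG, was at 10.87, 11.48, 10.04 and 9.54 in naive and at 12.45, 12.73, 12.05 and 11.95 in pretreated arrays, without overlap, a difference of 1.81 ± 0.14. Fcgr1, the high-affinity receptor, differed by 1.10 ± 0.13. The inhibitory receptor Fcgr2b had a difference of -0.80 ± 0.22 that was not called (adjusted p = 0.154), and Fcgr3 one of -0.18 ± 0.10 (adjusted p = 0.748). Of 12 complement genes 3 were higher, with a median of 0.20. Cfb, factor B of the alternative pathway, differed by 1.74 ± 0.19, C4b by 1.07 ± 0.16 from a dim naive level, and C1ra by 0.93 ± 0.10. Of 11 genes of inflammasomes and cell death, Mlkl, which carries out necroptosis, was higher by 0.79 ± 0.12 and Casp1 by 0.68 ± 0.13. The number block gave 5 higher genes of that list, beside 1.78% of all genes higher under that block. The call of Casp1 was lost when naive replicate 2, 3 or 4 or pretreated replicate 2, 3 or 4 was left out (adjusted p up to 0.13).

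Some of the largest differences were in genes outside these lists. Slamf8, a receptor of the SLAM family, was at 7.16, 6.90, 6.57 and 6.16 in naive and 9.34, 10.27, 9.0 and 9.24 in pretreated arrays, a difference of 2.77 ± 0.22. Its naive mean was dim in set 2. Fgl2, a prothrombinase that also acts on T cells, was at 10.46, 9.78, 8.89 and 7.84 in naive and 11.82, 12.27, 11.36 and 11.05 in pretreated arrays, a difference of 2.38 ± 0.22. Slco3a1, a transporter of organic anions, differed by 2.09 ± 0.17. The poorly described genes BC023105, Gm4951, AW112010 and Gm1966 differed by 3.56, 3.27, 2.62 and 2.17, and the naive mean of BC023105 was dim. Of the 20 called genes with the largest rises, all but H2-Ab1 and H2-Eb1 were called in every fit that left out an array.

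**Figure D3:**
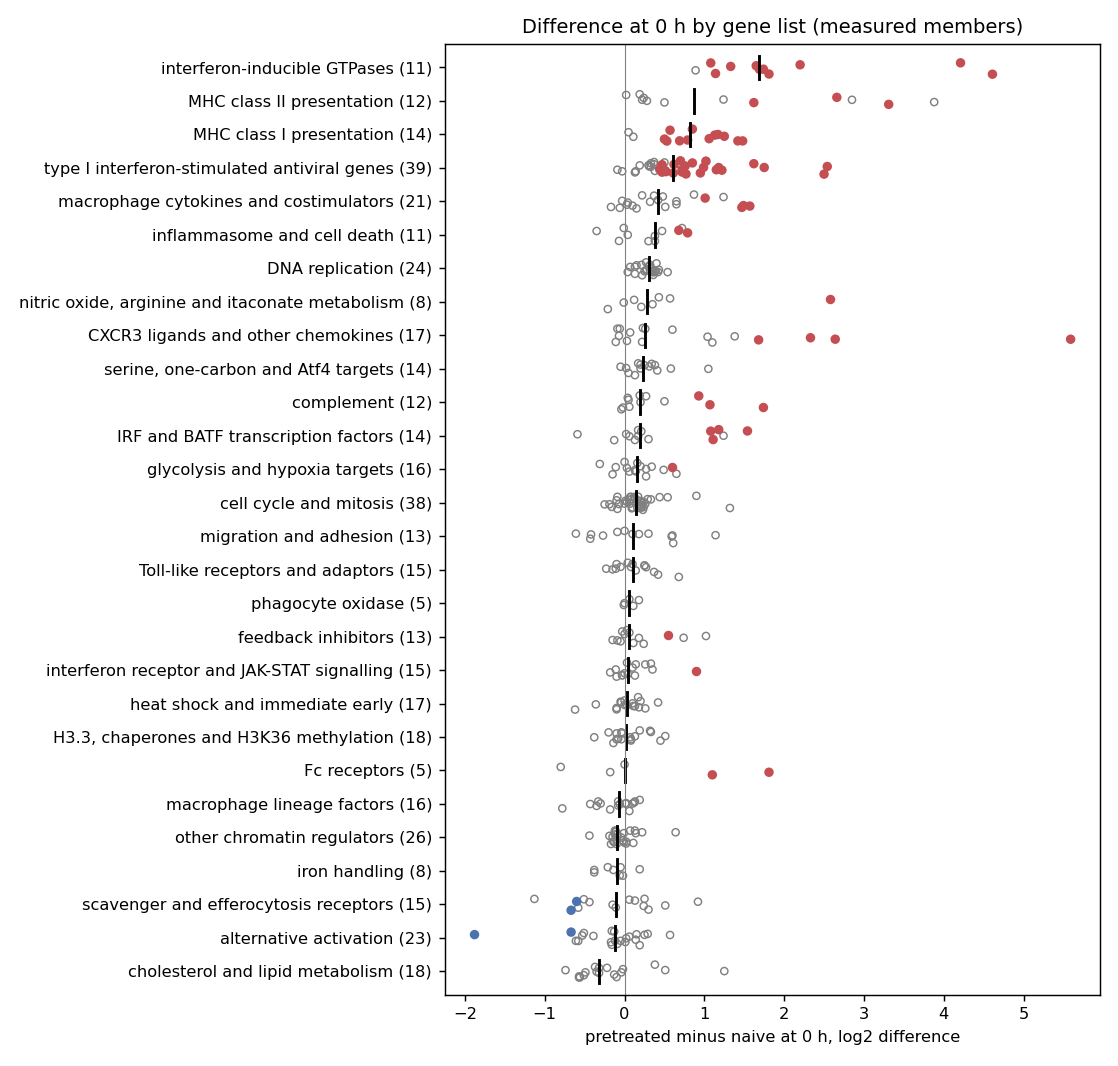
Log2 difference at 0 h, pretreated minus naive, for the measured members of each gene list, with filled points for genes past the adjusted p of 0.05 and a black tick at the list's median. GTPases (median 1.69) and MHC class I genes (median 0.82) lie almost wholly to the right of 0, while chromatin and macrophage lineage genes lie around it.

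The lower genes had smaller differences than the higher ones. Cbr2, a carbonyl reductase used as a marker of resident-type macrophages, was at 9.92, 10.44, 10.52 and 10.72 in naive and at 8.81, 8.49, 8.41 and 8.36 in pretreated arrays. The groups lay apart, with a difference of -1.88 ± 0.13 (adjusted p = 8.23e-06). Ednrb, a receptor for endothelins, was at 10.42, 11.13, 10.02 and 9.44 in naive and at 9.10, 9.91, 8.33 and 7.79 in pretreated arrays, a difference of -1.47 ± 0.23 (adjusted p = 0.00544). The groups of Ednrb overlapped across the sets but not within either. Igf1r, the receptor for insulin-like growth factor 1, differed by -0.93 ± 0.12, and the growth factor Bmp2 by -0.94 ± 0.16. Those 4 were on a list drawn from earlier results of these arrays, so their direction is not independent evidence.

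Other lower genes code for secreted and matrix proteins, receptors and enzymes. Lama3, a laminin chain, differed by -0.82 ± 0.13, Colec12, a scavenger receptor of the collectin type, by -0.81 ± 0.12, and the Wnt coreceptor Lrp6 by -0.78 ± 0.11. The clock gene Per3 differed by -0.81 ± 0.13, glutamine synthetase Glul by -0.73 ± 0.12 and Pam, which amidates peptides, by -0.63 ± 0.08. Of 23 genes of alternative activation 2 were lower and none higher, with a median of -0.12, and of 15 scavenger and efferocytosis receptors 2 were lower, with a median of -0.11. Cd163, the receptor for haptoglobin-bound haemoglobin, is on both lists and differed by -0.67 ± 0.12 (adjusted p = 0.0199). Gas6, which bridges dying cells to their receptors, had a difference of -0.60 ± 0.11 (adjusted p = 0.0131). The mannose receptor Mrc1 differed by -0.58 ± 0.14 and was not called (adjusted p = 0.086). With the number block 5 genes of alternative activation were lower, and 6 scavenger and efferocytosis receptors were lower and 1 higher. Over all genes that block called 1.65% lower and 1.78% higher. The call of Bmp2 was lost without naive replicate 4 or pretreated replicate 1, 3 or 4 (adjusted p up to 0.0667). That of Gas6 was lost without naive replicate 2 or 3 or pretreated replicate 2 or 4 (up to 0.0733), and that of Cd163 without naive replicate 2 or 4 or pretreated replicate 1, 3 or 4 (up to 0.111).

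Of the markers of other cell types 3 were called. Clec9a, a receptor of cross-presenting dendritic cells, was at 5.70, 5.39, 5.0 and 5.07 in naive and at 6.51, 8.12, 6.40 and 6.80 in pretreated arrays, a difference of 1.67 ± 0.28 from a dim level. Bst2, also an antiviral interferon target, differed by 0.72 ± 0.15. Of 10 dendritic cell markers no other was called, and differences of the 10 ranged from -0.71 to 1.67, with a median of 0.02. As examples from the list, Flt3, Zbtb46, Xcr1 and Siglech were at 5.88 to 7.34 in all 8 arrays. The summed level of the 10 in set 1 was 11.82 to 11.96 in naive and 12.10 to 12.54 in pretreated arrays, without overlap. In set 2 it was 11.88 to 12.10 in naive and 11.93 to 12.30 in pretreated arrays. Ppbp, a platelet chemokine, was lower by 0.72 on the log2 scale at dim levels (adjusted p = 0.0243), and Pf4, which macrophages also express, had a difference of -0.84 ± 0.22 (adjusted p = 0.146). Any part of other cells in these differences was not tested. The call of Clec9a was lost without naive replicate 2 or pretreated replicate 4 (adjusted p up to 0.0544). That of Bst2 was lost when any array but naive replicate 4 or pretreated replicate 2 was left out (up to 0.141), and that of Ppbp when any but pretreated replicate 4 was (up to 0.105).

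Several groups of genes gave no call without the number block. None of 18 genes for H3.3, its chaperones and H3K36 methylation was called, with a median of 0.02. H3f3a, which codes for H3.3, had a difference of -0.08 ± 0.10 at dim levels of 6.00 to 6.66, and H3f3b is not analysed here. Daxx, an H3.3 chaperone that is also interferon-induced, had 0.51 ± 0.12 (adjusted p = 0.0794). None of 26 other chromatin regulators (median -0.09), 16 macrophage lineage factors (-0.07), 18 genes of cholesterol and lipid metabolism (-0.32) or 17 heat shock and immediate early genes (0.03) was called. Neither was any of 38 cell cycle genes, whose median was 0.32 in set 1 and -0.04 in set 2. All 24 DNA replication genes had a positive difference, with a median of 0.31, and none was called. Over all genes 56.3% had a positive difference in set 1 and 51.5% in set 2. With the number block 1 gene of the H3.3 list was higher and 1 lower, and 1 other chromatin regulator and 3 cell cycle genes were higher. Under that block 2 lineage factors, 2 cholesterol and lipid genes and 1 heat shock or immediate early gene were lower. No DNA replication gene was called. Over all genes the block called 1.78% higher and 1.65% lower, and these small counts are not read as results about the lists. Of 16 glycolysis genes Pfkp, a phosphofructokinase, was higher by 0.60 ± 0.13 (adjusted p = 0.0446), a call that was lost when any array but naive replicate 1 or 4 was left out (adjusted p up to 0.213).

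The difference at 0 h was also taken in each set, and the sets hold different arrays. Within set 1 alone 45 genes were higher (0.226%) and 9 lower (0.0451%), and within set 2 alone 88 were higher (0.441%) and 5 lower (0.0251%). All 45 had a positive difference in set 2, with a median of 1.76 there against 1.42 in set 1, and 39 were called in both. All 88 had a positive difference in set 1, with a median of 0.99 there against 1.5 in set 2. The share of all genes with a positive difference was 56.3% in set 1 and 51.5% in set 2. Of the 9 lower genes of set 1, 8 had a negative difference in set 2 and 2 were called there, and all 5 lower genes of set 2 were negative in set 1. The difference between the sets was past the threshold for 1 gene (0.00502%), Ifi205, at 3.54 in set 2 and 1.54 in set 1 (2.0 ± 0.23, adjusted p = 0.0283), beside 212 genes at an unadjusted p under 0.05. Its naive values were 8.72, 8.34, 7.43 and 7.85 and its pretreated values 10.05, 10.09, 11.27 and 11.09. Set 2 thus had lower naive and higher pretreated values. That gene was not called without naive replicate 1 or 3 or pretreated replicate 1 or 4, when no gene was, and 2 genes were called without naive replicate 4. The calls within set 1 numbered 30, 23 and 12 without naive replicate 1, naive replicate 2 and pretreated replicate 2, and those within set 2 numbered 61 without pretreated replicate 4.

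**Figure D4:**
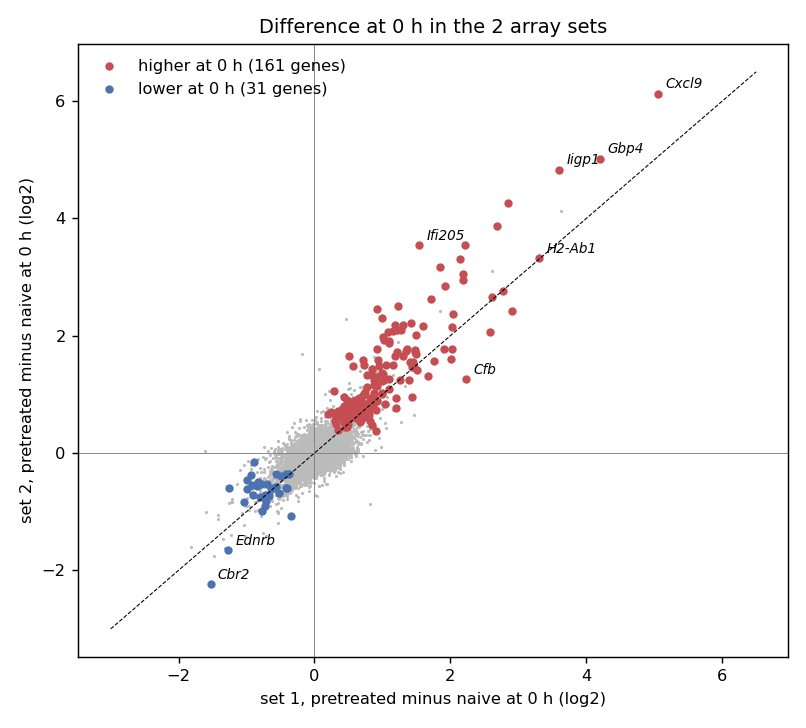
Log2 difference at 0 h, pretreated minus naive, in array set 1 (x axis) against set 2 (y axis), with 1 point per gene, filled for genes past the threshold over both sets and a dashed line of equal values. Cxcl9 is at 5.06 and 6.13, Ifi205 lies above the line at 1.54 and 3.54, Cfb below it at 2.23 and 1.26, and Cbr2 at -1.53 and -2.24.

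The genes that were higher at 0 h were nearly all genes that naive macrophages raised on first exposure. To keep arrays apart, the 0 h difference of set 2 was set beside the 6 h response of naive cells in set 1, in which 1492 genes rose (7.48%) and 2161 fell (10.8%). Of the 88 genes higher at 0 h in set 2, 85 (96.6%) rose at 6 h in set 1 and none fell, with a median of 1.89. The change at 6 h was larger than the 0 h difference for 68 of them. In the other direction, 85 of the 1492 rising genes (5.7%) were higher at 0 h, and the median 0 h difference of the rising genes was 0.13. With the 3 h response of set 2, in which 671 genes rose (3.37%), and the 0 h difference of set 1, 39 of 45 higher genes (86.7%) rose and 1, Ccr3, fell.

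The size of the 0 h difference beside that of the 6 h response varied between genes. Cxcl9 rose by 7.12 at 6 h in set 1 and was 6.13 higher at 0 h in set 2. Iigp1 rose by 5.47 and was 4.83 higher, and Zbp1 rose by 2.97 and was 3.17 higher. For Cxcl9, Iigp1 and Zbp1 the 0 h difference was smaller in set 1, the set of the 6 h response. The genes called higher in set 2 had a median 0 h difference of 1.5 there and 0.99 in set 1. How near the 0 h difference comes to the 6 h response thus depends on the set. By contrast Batf2 rose by 4.23 and was 1.33 higher, Socs1 rose by 3.56 and had a 0 h difference of 0.72 in set 2, past the threshold over both sets only, and Cxcl11 rose by 4.61 and had a 0 h difference of 0.19. S1pr1, a receptor for sphingosine-1-phosphate, fell by 4.3 at 6 h and had a difference of -0.71 in set 2, with an adjusted p of 0.0502 over both sets at 0 h. Cbr2 fell by 0.66 and was 2.24 lower at 0 h.

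**Figure D5:**
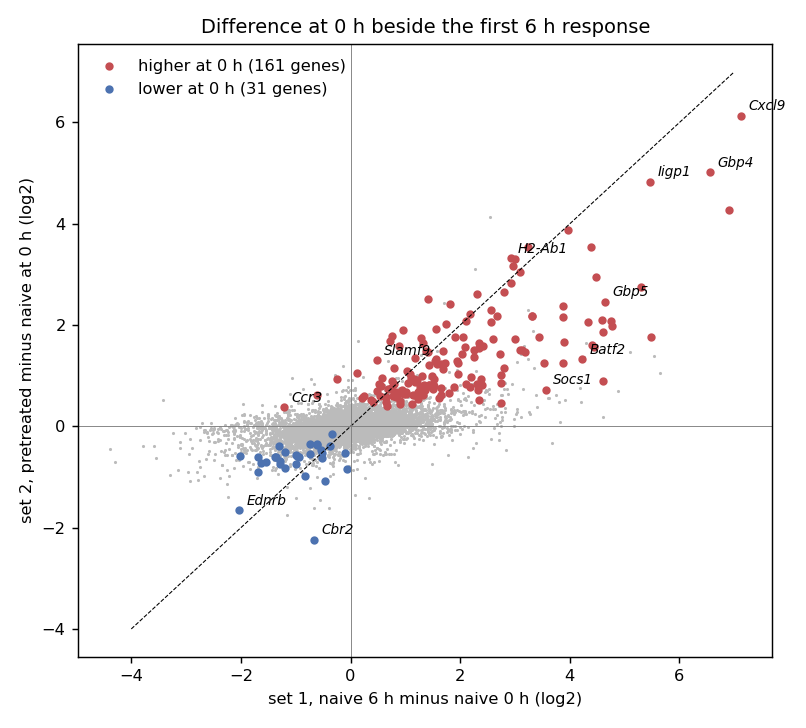
Change of naive macrophages at 6 h in array set 1 (x axis, log2) against the difference at 0 h in set 2 (y axis, log2), with 1 point per gene from arrays that the axes do not share, filled for genes past the threshold at 0 h over both sets and a dashed line of equal values. Cxcl9 (7.12 and 6.13) and Iigp1 (5.47 and 4.83) lie near the line, Batf2 (4.23 and 1.33) and Socs1 (3.56 and 0.72) far under it, and S1pr1 stands at -4.3 and -0.71. The 0 h differences of Cxcl9 and Iigp1 were smaller in set 1, so their distance from the line depends on the set.

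A few genes that were higher at 0 h in a set did not rise at the time point of the other set, and they are named after their values were seen. Of the 88 higher genes of set 2, 3 did not rise at 6 h in set 1: Cysltr2, Ifit3b and Ocstamp. Cysltr2, a receptor for leukotrienes, was at 6.11, 5.72, 5.08 and 5.26 in naive and at 6.95, 7.85, 6.63 and 7.08 in pretreated arrays, a difference of 1.59 ± 0.20 from a dim level, and it changed by 0.72 at 6 h (adjusted p = 0.0973). Of the 45 higher genes of set 1, 6 did not rise at 3 h in set 2, namely Aif1, Ccl5, Ccr3, Cd72, H2-Q5 and Slamf9. Slamf9, a receptor of the SLAM family, was at 9.12, 9.15, 9.57 and 10.62 in naive and at 10.69, 10.93, 11.18 and 11.62 in pretreated arrays, without overlap, a difference of 1.49 ± 0.21 (adjusted p = 0.00242). Its change in naive cells was -0.43 at 3 h (adjusted p = 0.597). Cd72, a receptor best known from B cells, differed by 0.68 ± 0.10 from naive levels of 12.24 to 12.85 and changed by -0.25 at 3 h (adjusted p = 0.507). Ccr3, a chemokine receptor, was at 8.28, 7.89, 7.82 and 7.75 in naive and 8.92, 9.05, 8.14 and 8.19 in pretreated arrays, a difference of 0.64 ± 0.10 (adjusted p = 0.00781). It fell by 0.67 at 3 h in naive cells. Aif1, a calcium-binding protein of macrophages that earlier results of these arrays had picked, differed by 1.5 ± 0.13 and changed by 0.36 at 3 h (adjusted p = 0.423). At 6 h in set 1, which shares naive arrays with these 6 differences, Aif1 rose by 0.96, Ccl5 by 2.80 and H2-Q5 by 1.03 and Ccr3 fell by 1.21. Cd72 and Slamf9 changed there by 0.21 and 0.48, not past the threshold. At 3 h in set 2, which shares naive arrays with the 3 genes of that set, Ifit3b rose by 1.5, and Cysltr2 and Ocstamp changed by 0.38 and 0.10, not past the threshold.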

How the data were processed

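RNA of 16 samples was hybridised to 1-colour Affymetrix MoGene 1.0 ST arrays after biotin labelling, per the labels. The authors deposited 1 log2 intensity per feature and array, and they were used as deposited. How the authors corrected background, normalized and summarised them is not given in the sources used here. Of 35557 features 21789 carry 1 symbol in the platform annotation, which can be old. They gave 19938 genes, with the brightest feature taken for the 999 genes that have several. The 1621 features with several symbols were not named. The number of arrays limits the precision.

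The limma fit (version 3.58.1, R 4.3.3) used all 16 arrays and 8 means, 1 per group in each set. It had 8 residual degrees of freedom and 4.26 prior ones. Errors are standard errors of this fit, p-values carry a Benjamini-Hochberg adjustment over the 19938 genes, and a gene was called at an adjusted p under 0.05. The fit was tested on simulated data first, with noise independent between arrays. At 0 h it called 48% of 50 genes given a log2 difference of 0.5 and 96% of 50 given 1. There were 13 false calls. Correlation between arrays in the same run of numbers, given below, was not simulated, so its effect on the calls was not tested there.

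The comparison and the 39 gene lists, with 549 of 599 members measured, were chosen with earlier results of these data known. The rule for named genes took the 20 largest rises and 20 largest falls without overlap within a set, up to 4 members of each list and a set of interferon genes given by name. The text gives a subset, picked with values in view. It also names list members outside the rule, such as Tap2, B2m, Mx2 and Cxcl11, and does not mark each of them.

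Alternatives were the number block, an additive or no set term, only the arrays compared, a filter on dim genes, quantile normalization again, the mean of a gene's features, all features, eBayes with trend and robust, array weights, a 2-fold limit and each array left out. With 1 array left out, the lone array of its group and set is assumed to vary like the others. Deviations of arrays in the same run of numbers correlated between groups at 0.08 to 0.66, and at 0.15 and 0.52 for the 0 h groups of set 1 and set 2. The labels name no pairing, so the block stayed an alternative. Figures used Python 3.11.15 and matplotlib 3.10.9.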

Additional observations from a re-analysis of the deposited data

Results flagged for a closer look

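For 8 of 218 gene and group pairs tested, 1 array of 4 lay far from the others of its group after each set was centred on its 0 h mean, with a gap to the nearest other array that exceeded Dixon's 95% critical share of the group's range. Chance alone gives about 1 in 20. In pretreated replicate 1, AW112010 was low at 0.70 beside 1.49 to 1.54 (gap 0.936 of the range), Irgm1 low at 0.13 beside 0.68 to 0.75 (0.884) and Fcgr3 low at -0.27 beside -0.05 to -0.02 (0.879). In pretreated replicate 2, Irf7 was low at 0.52 beside 0.83 to 0.88 (0.877), and in pretreated replicate 3, Ifit3b was high at 1.38 beside 0.40 to 0.51 (0.886). In naive replicate 4, Per3 was low at 0.09 beside 0.50 to 0.53 (0.929) and Socs3 low at -0.38 beside 0.09 (0.997). In naive replicate 1, S1pr1 was low at 0.16 beside 0.35 to 0.36 (0.945).

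The 0 h difference of Ifi205 differed between the array sets by 2.0 on the log2 scale, larger in set 2.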

How the results depend on the processing

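The main fit called 192 genes at 0 h. Calls numbered 148 to 235 under a group of alternatives. These were the additive set term, array weights, only the arrays compared, dim filter, mean of features, quantile normalization and eBayes with trend and robust. With an array left out there were 142 to 203 calls. These counts hold all calls of a fit and can include genes outside the 192. With only the arrays compared, 120 of the 161 higher and 15 of the 31 lower genes kept their call. With all features the count was 278, of features and not of genes. None of the 192 genes took the other sign in any of these fits, all features aside, where the sign was not compared. Calls numbered 100 (97 higher and 3 lower, all among the 192) with no set term and 85 with a 2-fold limit. With the array numbers as a replicate block, 684 genes were called (355 higher, 329 lower), 196 within set 1, 238 within set 2 and 1925 for the naive 3 h response, the listed genes called rose from 79 to 134, the named genes from 71 to 108, and genes of set 1 with the same sign in set 2 from 53 to 195, while the share of promoters with a motif was 23.6%. With no set term 47 listed and 42 named genes were called. Within set 1, 54 genes were called, and 35 with array weights and 28 with only the arrays compared, of which 35 and 28 had the same sign in set 2. With all features 102 features were called within set 1. Within set 2, 93 genes were called, and 44 with only the arrays compared. The gene called between the sets was lost, leaving 0, with all features, array weights and only the arrays compared. The naive responses numbered 3653 at 6 h and 1088 at 3 h, and 1310 and 487 with a 2-fold limit, and 584 at 3 h with only the arrays compared. With an array left out, the counts ranged from 12 to 59 within set 1, 61 to 75 within set 2, 0 to 2 between the sets, 2217 to 2981 at 6 h, 543 to 716 at 3 h, 61 to 76 for listed genes, 55 to 71 for named genes, 12 to 58 for the same sign in set 2, and 31.9% to 40.2% for the promoters. The causes were not tested. The array count, 2 per group and set, limits what can be called.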

Other observations

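Features that the annotation gives no single gene were outside the comparison of genes. In a fit of all 35557 features, 31 of 1621 features with several symbols were higher (1.91%) and none lower, with a largest log2 difference of 3.42. Of 12147 features with no symbol 35 were higher (0.288%) and 22 lower (0.181%), with a largest difference of 3.97, beside 168 higher (0.771%) and 22 lower (0.101%) of the 21789 features with 1 symbol.

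Of 9 called genes with more than 1 feature, A530032D15Rik had features at -0.20 and 0.81 and Crybg1 at 0.09 and 0.62. The features of Rnf213 (0.63 and 0.65) and Glul (-0.73 and -0.73) gave nearly the same difference.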
